A study of Homo sapiens with 6 samples.

Results

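The 40 genes described here carry out DNA replication (20 genes, from MCM2 to E2F1) and mitosis (20 genes, from CCNA2 to BIRC5) in PA-1, an established human cell line derived from a teratocarcinoma of the ovary. They were listed by name out of a table of 20494 genes, and all 40 are among the 11881 genes with a mean of at least 1 RPKM (reads per kilobase of transcript, scaled to the size of the library) over the 6 libraries. Each library is the only sample of its group, so nothing below is a test of a condition: a difference is one between 2 libraries, and fewer cells in a cycle phase and less RNA per cell cannot be told apart in bulk RNA. In the Vector group the cells were transfected with 8 µg of pCDNA3.1 vector for 48 h. The RIPK1, RIPK2, RIPK3 and RIPK4 groups took 8 µg of plasmid for the receptor-interacting protein kinase of that name, also for 48 h. The Wnt3a group was given 200 ng of the Wnt3a ligand for 16 h, and the labels do not say whether a plasmid was added, so ligand, plasmid and time cannot be told apart in its comparison with Vector. No group is labelled as synchronised in the cell cycle.

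A dividing cell copies its DNA in S phase and separates the copies in M phase, and the 2 gene groups are switched on in that order. Replication genes are controlled largely by E2F transcription factors, which are held back by the retinoblastoma protein until G1 cyclins and their kinases release them. Mitosis genes are controlled later, by the MuvB complex with B-MYB and FOXM1, at a promoter element named CHR (cell cycle genes homology region) and at CCAAT boxes bound by NF-Y. Pluripotent and embryonal carcinoma cells cycle fast with a short G1 phase, so both groups are highly expressed in them.

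The authors' values rest on 17.25 M to 19.51 M reads per library. Each transfected kinase was highest in the library named for it: RIPK3 stood at 61.4 RPKM against 0 in Vector, RIPK4 at 17.9 against 0, RIPK2 at 27.4 against 11.8 and RIPK1 at 16.6 against 12.8. Of 11 genes that mark PA-1 cells, 9 or 10 reached 1 RPKM in every library and TDGF1 was listed at 0 throughout, with a summed level of 839 (RIPK2) to 1310 RPKM (RIPK1). Over the 10 with a mean of at least 1 RPKM, the median log2(RPKM + 1) difference from Vector was -0.58 with Wnt3a, 0.03 with RIPK1, -0.41 with RIPK2, -0.31 with RIPK3 and -0.27 with RIPK4. SOX2, for one, stood at 148.6 RPKM in Vector and 48.1 with Wnt3a, and PRDM14 at 56.8 and 25.2. Of 14 markers of other cells, PECAM1, CDH5, PDGFRB and GATA4 reached 1 RPKM in each library, the sums lay between 42 and 55.6 RPKM, and DCN and CGA were at 0 in all 6. The markers were mixed, and 8 of the 10 were below Vector with Wnt3a, 9 with RIPK2, 8 with RIPK3 and 6 with RIPK4. SALL4, for one, was above Vector (37.7 RPKM) in these 4 libraries, at 49.1, 40.3, 40.4 and 55.2. The median of the PA-1 markers thus lay below Vector in the same 4 libraries as that of the mitosis genes described below. The part of these markers in the results was not tested.

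The promoters of the 2 groups differ in their letters. A window from 250 bases before to 50 after the start of transcription was found for 17 of 20 replication and 17 of 20 mitosis genes in RefSeq (GRCh38.p14). None was found for MCM4, MCM5, CCNE2, AURKA, TTK and BIRC5. Both strands were searched for the CCAAT box by its letters, for the CHR as TTTGAA with TTCGAA as a variant, and for the E2F core as TTGGCGC with TTCGCGC as a variant, TTCCCGC as another and TTGCCGC as the last. An E2F core stood in 13 of 17 replication windows (76.5%) and 4 of 17 mitosis windows (23.5%), against 13.1% of all 27305 windows and 21.3% of those of the 9569 genes analysed that have one. The mitosis share is thus near that of the genes analysed. A CHR stood in 2 of 17 replication windows (11.8%) and 12 of 17 mitosis windows (70.6%), against 16.6% of all and 11.3% of the genes analysed. CCAAT was found in 70.6% of replication and 82.4% of mitosis windows, against 35.7% of all and 37.3% of the genes analysed. CHR and CCAAT together were in 11.8% of replication and 58.8% of mitosis windows, against 6.58% of all and 4.88% of the genes analysed. A match is a description of letters, not a bound site. The 5 windows below show the contrast: CDT1 and E2F1 have E2F cores and no CHR, CCNB2 and CDC20 have CHR and CCAAT and no E2F core, and NUF2 is the member with the largest difference between libraries among those with a window. They are printed 5′ to 3′ on the strand of the gene, with every match on either strand in capitals.
CDT1, chr16:88803539-88803838, plus strand: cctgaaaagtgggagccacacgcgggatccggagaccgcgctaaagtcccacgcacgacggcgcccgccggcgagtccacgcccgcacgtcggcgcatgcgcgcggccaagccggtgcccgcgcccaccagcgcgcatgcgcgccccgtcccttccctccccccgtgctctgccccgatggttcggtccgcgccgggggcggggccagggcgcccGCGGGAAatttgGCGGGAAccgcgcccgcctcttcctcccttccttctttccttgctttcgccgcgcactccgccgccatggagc
E2F1, chr20:33686336-33686635, minus strand: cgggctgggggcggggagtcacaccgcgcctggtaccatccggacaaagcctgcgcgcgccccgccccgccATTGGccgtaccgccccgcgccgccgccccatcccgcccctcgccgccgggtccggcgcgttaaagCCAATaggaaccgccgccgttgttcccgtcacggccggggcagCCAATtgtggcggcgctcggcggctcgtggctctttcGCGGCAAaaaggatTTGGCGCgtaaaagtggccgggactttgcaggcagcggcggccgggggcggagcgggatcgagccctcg
CCNB2, chr15:59104896-59105195, plus strand: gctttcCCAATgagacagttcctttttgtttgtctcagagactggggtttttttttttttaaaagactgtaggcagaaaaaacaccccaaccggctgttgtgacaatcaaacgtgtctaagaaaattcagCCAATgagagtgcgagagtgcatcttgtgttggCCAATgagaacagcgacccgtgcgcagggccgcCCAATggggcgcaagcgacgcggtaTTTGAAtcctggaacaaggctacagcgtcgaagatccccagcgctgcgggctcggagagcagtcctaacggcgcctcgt
CDC20, chr1:43358731-43359030, plus strand: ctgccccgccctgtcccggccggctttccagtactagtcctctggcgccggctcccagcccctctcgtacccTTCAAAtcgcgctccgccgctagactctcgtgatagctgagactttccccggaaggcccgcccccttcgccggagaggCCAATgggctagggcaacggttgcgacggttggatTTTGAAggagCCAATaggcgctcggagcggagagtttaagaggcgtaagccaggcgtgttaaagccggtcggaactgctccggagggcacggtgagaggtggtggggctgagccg
NUF2, chr1:163321704-163322003, plus strand: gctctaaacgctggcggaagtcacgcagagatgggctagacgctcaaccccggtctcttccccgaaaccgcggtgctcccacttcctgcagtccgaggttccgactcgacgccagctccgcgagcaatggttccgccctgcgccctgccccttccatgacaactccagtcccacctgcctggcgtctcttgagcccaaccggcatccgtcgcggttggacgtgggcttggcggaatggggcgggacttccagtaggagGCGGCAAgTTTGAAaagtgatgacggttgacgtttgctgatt
CDT1 has 2 E2F cores, both on the strand not printed, and no CCAAT, while E2F1 has 2 cores and 3 CCAAT boxes. No matches overlap in these 5 windows. CCNB2 has 4 CCAAT boxes with a CHR close to the start, and CDC20 has 2 of each. NUF2 has a CHR and an E2F core after the start and no CCAAT.

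Both groups were highly expressed in every library. In Vector the replication genes had a median of 55.1 RPKM, from 4.24 (CCNE2) to 253.3 (TYMS), and the mitosis genes a median of 40.6 RPKM, from 16.5 (CENPE) to 118.3 (CCNB1), where all genes analysed had a median of 10.1. The medians of the replication genes were 58.1 RPKM with Wnt3a, 56.5 with RIPK1, 53.7 with RIPK2, 49.8 with RIPK3 and 56.1 with RIPK4. For the mitosis genes they were 35.9, 48.8, 36.0, 36.7 and 38.1 RPKM. No member was lost or gained in any library.

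**Figure D1:**
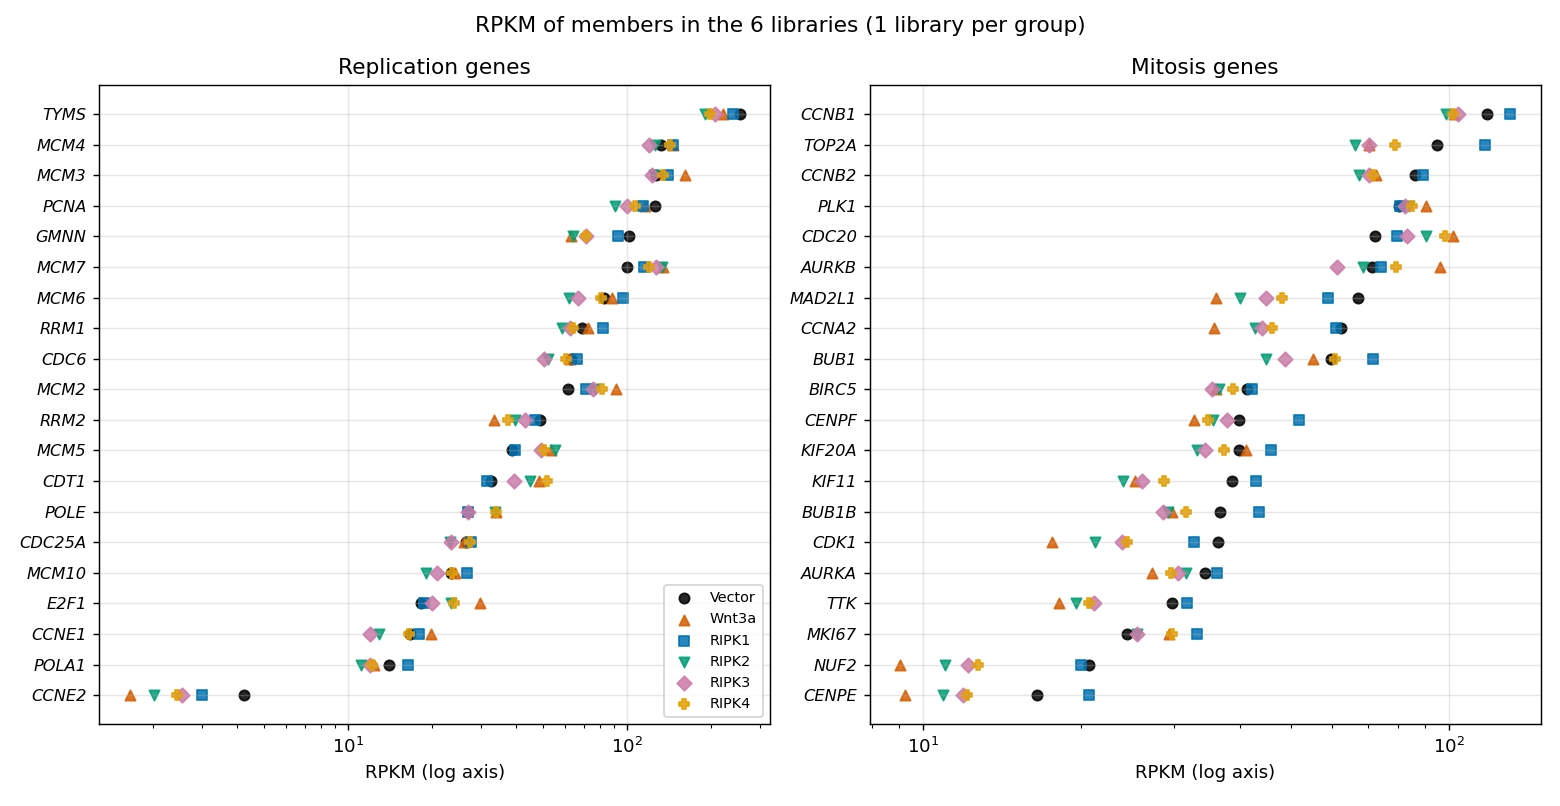
RPKM (log axis) of each replication gene (left) and mitosis gene (right) in the 6 libraries, 1 point per library, ordered by the level in Vector. Most points of a gene lie close together, and the widest spreads are those of CCNE2 (1.65 to 4.24), NUF2 (9.05 to 20.7) and CENPE (9.23 to 20.7).

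Against Vector the mitosis genes stood lower with Wnt3a, RIPK2, RIPK3 and RIPK4, and slightly higher with RIPK1, while the replication genes were split. On the log2(RPKM + 1) scale, used for all differences below, the median difference of the mitosis genes was -0.29 with Wnt3a, 0.11 with RIPK1, -0.34 with RIPK2, -0.29 with RIPK3 and -0.21 with RIPK4. The replication medians were 0.08, 0.06, -0.25, -0.17 and -0.00, and the medians of all genes analysed were 0.04, 0.01, -0.01, 0.02 and 0.05. All 5 comparisons use the same Vector library, so a deviation of that library alone would appear in each of them. In 4 of the 5 comparisons the differences also moved with the GC content of the transcripts. The folds given by role below still hold that trend. Values with it removed follow the last role, for the 2 groups and for some members.

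The differences of single members were small. On the log2(RPKM + 1) scale a 2-fold difference was reached only by NUF2 and CDK1, both lower with Wnt3a, where 1.43% of all genes were at least 2-fold lower and 0.673% at least 2-fold higher. On that scale no member was 2-fold away from Vector with RIPK1 (0.295% of all genes higher and 0.547% lower), RIPK2 (1.59% and 0.699%), RIPK3 (1.47% and 0.581%) or RIPK4 (0.396% and 0.387%). As a plain ratio of RPKM, the weakly expressed CCNE2 was past 2-fold as well, with Wnt3a and with RIPK2. A lower mark, a difference of at least 0.32 on the log2 scale, was therefore used for counts. With Wnt3a, 7 replication genes were higher by that mark and 3 lower, and 2 mitosis genes were higher and 8 lower, against 24.9% of all genes higher and 21.5% lower. In the RIPK1 library only CCNE2 was lower, and MKI67 and CENPF were higher, where 5.17% of all genes were higher and 6.76% lower. For RIPK2, 5 replication genes were higher and 6 lower, and 0 mitosis genes were higher and 10 lower (all genes 21.2% and 22.0%). For RIPK3 the counts were 2 and 4 in replication and 0 and 9 in mitosis (all genes 17.8% and 14.5%). For RIPK4 they were 5 and 4 in replication and 1 and 7 in mitosis (all genes 21.3% and 13.6%). So the replication genes lay near the background on both sides with Wnt3a and RIPK2, and the mitosis genes were lower more often than all genes in each comparison but RIPK1.

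**Figure D2:**
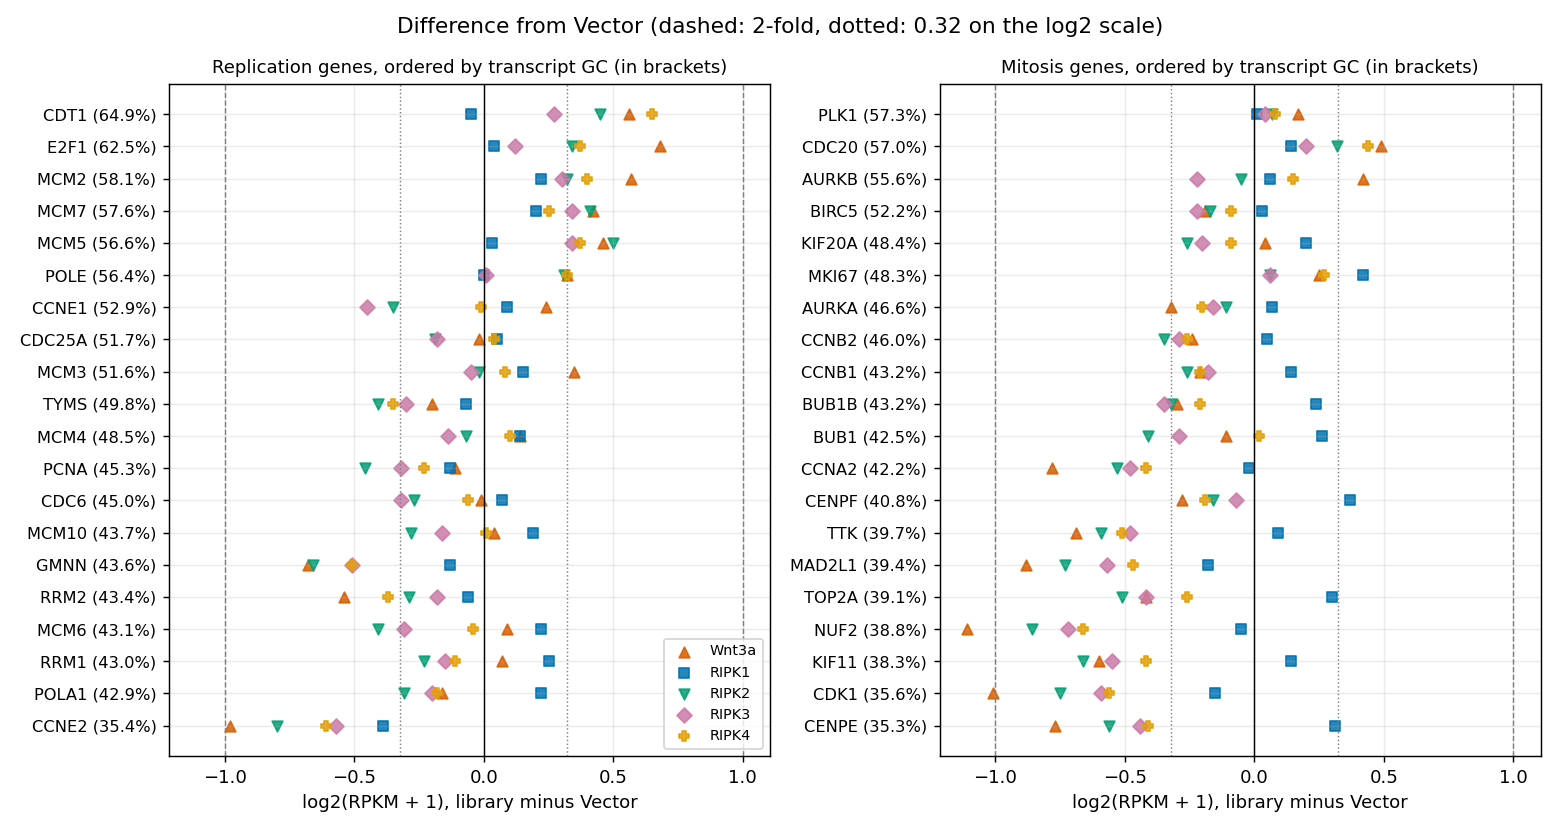
Difference of log2(RPKM + 1) from Vector for each member (replication left, mitosis right) in the 5 other libraries, with genes ordered by the GC content of their transcript. Dashed lines mark 2-fold and dotted lines 0.32 on the log2 scale. Points run from lower left to upper right in all libraries but RIPK1, and only NUF2 (-1.11) and CDK1 (-1.01) pass the left dashed line.

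The MCM2 to MCM7 proteins form the ring-shaped helicase that opens DNA at the fork. All 6 genes were higher with Wnt3a, with a median difference of 0.38, and 4 of them passed the mark of 0.32. MCM2 had 61.2 RPKM in Vector, 91.5 with Wnt3a, 71.5 with RIPK1, 76.9 with RIPK2, 75.8 with RIPK3 and 81.1 with RIPK4. It was lowest in Vector and 1.5-fold higher (1.44 to 1.56) with Wnt3a. In brackets here and below is the 95% interval of the ratio of RPKM from an exact binomial on the reads of both libraries, which covers counting error only, and every such fold is against Vector. MCM5 had 38.8 RPKM in Vector, 53.5 with Wnt3a, 39.7 with RIPK1, 55.3 with RIPK2, 49.3 with RIPK3 and 50.4 with RIPK4. Vector and RIPK1 were the low pair, and the other 4 libraries stood above them. How many of all genes split the libraries in this way was not counted, here or for the members below. MCM7 had 100.1 RPKM in Vector, 134.1 with Wnt3a, 115.0 with RIPK1, 133.8 with RIPK2, 127.3 with RIPK3 and 119.6 with RIPK4, again lowest in Vector. MCM7 shares 224 exonic bases with AP4M1 and MCM2 774 with a transcript on the opposite strand, so some reads may belong to those neighbours. MCM6 went another way, with 82.9 RPKM in Vector, 88.5 with Wnt3a, 96.7 with RIPK1, 62.2 with RIPK2, 66.8 with RIPK3 and 80.6 with RIPK4: it was highest with RIPK1 and 1.33-fold lower (1.28 to 1.39) with RIPK2. MCM3 lay between 122.5 (RIPK3) and 161.5 RPKM (Wnt3a) and MCM4 between 120.3 (RIPK3) and 146.3 (RIPK1). The transcripts of the 6 subunits did not keep their proportions: the RPKM ratio of MCM2 to MCM6 was 0.739 in both Vector and RIPK1, 1.03 with Wnt3a, 1.24 with RIPK2, 1.14 with RIPK3 and 1.01 with RIPK4.

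Licensing factors load that ring before S phase, and among them the loader CDT1 and its inhibitor GMNN (geminin) showed opposite differences. CDT1 had 32.5 RPKM in Vector, 48.3 with Wnt3a, 31.4 with RIPK1, 44.8 with RIPK2, 39.5 with RIPK3 and 51.8 with RIPK4. It was low in Vector and RIPK1 and 1.59-fold higher (1.49 to 1.7) with RIPK4. GMNN had 101.9 RPKM in Vector, 63.2 with Wnt3a, 93 with RIPK1, 64.1 with RIPK2, 71 with RIPK3 and 71.4 with RIPK4. Here Vector and RIPK1 were the high pair, and GMNN was 1.61-fold lower (1.51 to 1.73) with Wnt3a and 1.59-fold lower (1.49 to 1.7) with RIPK2. The ratio of CDT1 to GMNN was 0.319 in Vector and 0.338 with RIPK1, against 0.765 with Wnt3a, 0.699 with RIPK2, 0.557 with RIPK3 and 0.725 with RIPK4. CDC6, which helps to load the helicase, stayed between 50.2 (RIPK3) and 66.3 RPKM (RIPK1), and MCM10, which helps to start it, between 19.1 (RIPK2) and 26.7 (RIPK1).

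At the fork, PCNA is the sliding clamp, POLA1 the catalytic subunit of the polymerase that makes primers, and POLE that of the leading-strand polymerase. PCNA had 125.7 RPKM in Vector, 116.4 with Wnt3a, 114.4 with RIPK1, 90.8 with RIPK2, 100.3 with RIPK3 and 106.9 with RIPK4. Vector was its highest library and RIPK2 its lowest, 1.38-fold apart. Its copy PCNAP1 is in the table, so reads may have been shared between them. POLE had 26.9 RPKM in Vector, 33.9 with Wnt3a, 26.9 with RIPK1, 33.7 with RIPK2, 27 with RIPK3 and 33.9 with RIPK4, which put Wnt3a, RIPK2 and RIPK4 together above the other 3 libraries. POLA1 showed almost the reverse, from 16.4 RPKM with RIPK1 and 14 in Vector down to 11.1 with RIPK2, with 12 to 12.4 in the other 3.

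Deoxynucleotides are supplied by ribonucleotide reductase, whose large subunit is RRM1 and small, S phase subunit RRM2, and by thymidylate synthase (TYMS). RRM2 had 48.9 RPKM in Vector, 33.3 with Wnt3a, 46.8 with RIPK1, 39.8 with RIPK2, 43.1 with RIPK3 and 37.5 with RIPK4. It was 1.47-fold lower (1.39 to 1.55) with Wnt3a and lowest there. RRM1 had 69 RPKM in Vector, 72.7 with Wnt3a, 82.2 with RIPK1, 58.7 with RIPK2, 62.3 with RIPK3 and 64.1 with RIPK4, highest with RIPK1. The ratio of RRM1 to RRM2 was 1.41 in Vector and 2.18 with Wnt3a, with 1.45 to 1.76 in the other 4 libraries, though the GC content of the 2 transcripts is nearly the same (43.0% and 43.4%). TYMS had 253.3 RPKM in Vector, 220.7 with Wnt3a, 240.4 with RIPK1, 190.8 with RIPK2, 206.1 with RIPK3 and 198.3 with RIPK4. Vector was highest, and the RIPK2 library was 1.33-fold lower. TYMS shares 719 exonic bases with ENOSF1 on the other strand, and whether the counting used strand is not given in the sources used here, so its values are uncertain by that share.

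Entry into S phase is set by E2F1, by cyclin E (CCNE1 and CCNE2), which activates CDK2, and by the phosphatase CDC25A. E2F1 had 18.3 RPKM in Vector, 29.8 with Wnt3a, 18.7 with RIPK1, 23.4 with RIPK2, 20 with RIPK3 and 23.9 with RIPK4. Wnt3a was the high library, 1.63-fold higher (1.5 to 1.78), and Vector and RIPK1 the low ones. CCNE1 had 16.7 RPKM in Vector, 19.9 with Wnt3a, 17.9 with RIPK1, 12.9 with RIPK2, 12 with RIPK3 and 16.5 with RIPK4. It stood above Vector with Wnt3a and below it with RIPK2 and RIPK3, where it was 1.39-fold lower (1.24 to 1.57). CCNE2, the weakest member, had 4.24 RPKM in Vector, 1.65 with Wnt3a, 3 with RIPK1, 2.02 with RIPK2, 2.54 with RIPK3 and 2.44 with RIPK4. It was highest in Vector, 2.57-fold lower (1.98 to 3.35) with Wnt3a and 2.1-fold lower (1.65 to 2.68) with RIPK2. On the log2(RPKM + 1) scale these are differences of -0.98 and -0.80, since the added 1 weighs on low values. CCNE2 overlaps INTS8 on the other strand over 1628 exonic bases, so its reads may include those of its neighbour. CDC25A hardly differed, from 23.2 (RIPK2) to 27.5 RPKM (RIPK1).

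Cyclins A2, B1 and B2 and their kinase CDK1 drive entry into mitosis. All 4 were below Vector with Wnt3a, RIPK2, RIPK3 and RIPK4, with medians of -0.51, -0.44, -0.39 and -0.34. With RIPK1 the median was 0.01, and 2 of the 4 were below Vector, CDK1 (-0.15) and CCNA2 (-0.02). CDK1 had 36.4 RPKM in Vector, 17.6 with Wnt3a, 32.8 with RIPK1, 21.2 with RIPK2, 23.9 with RIPK3 and 24.4 with RIPK4. It was 2.07-fold lower (1.94 to 2.2) with Wnt3a and 1.71-fold lower (1.61 to 1.82) with RIPK2. CCNA2 had 62.2 RPKM in Vector, 35.8 with Wnt3a, 61.1 with RIPK1, 42.7 with RIPK2, 44.2 with RIPK3 and 46.1 with RIPK4. Vector and RIPK1 were close together, and the 4 other libraries lay below both, 1.74-fold lower (1.64 to 1.84) with Wnt3a. CCNA2 shares 250 exonic bases with EXOSC9 on the other strand. The B cyclins differed less: CCNB1 lay between 98.7 (RIPK2) and 130.6 RPKM (RIPK1), and CCNB2 between 67.3 (RIPK2) and 89.3 (RIPK1). The ratio of CCNB1 to CCNA2 was 1.90 in Vector and 2.85 with Wnt3a, with GC contents of 43.2% and 42.2%.

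Among the mitotic kinases PLK1, AURKA (Aurora A, at spindle poles) and AURKB (Aurora B, at centromeres) and survivin (BIRC5), which holds Aurora B in the passenger complex, AURKB varied most. AURKB had 71.3 RPKM in Vector, 96 with Wnt3a, 74.4 with RIPK1, 68.7 with RIPK2, 61.2 with RIPK3 and 79.4 with RIPK4. It was 1.35-fold higher (1.26 to 1.44) with Wnt3a and lowest with RIPK3, 1.17-fold below Vector. AURKA, by contrast, was lowest with Wnt3a (27.3 RPKM) and otherwise between 29.6 and 36.2. PLK1 lay between 80.2 (Vector) and 90.4 RPKM (Wnt3a), and BIRC5 between 35.4 (RIPK3) and 42.3 (RIPK1).

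In the spindle checkpoint, which delays anaphase until all chromosomes are attached, CDC20 is the activator of the anaphase promoting complex, and MAD2L1 and BUB1B hold it back. CDC20 had 72.4 RPKM in Vector, 101.8 with Wnt3a, 79.7 with RIPK1, 90.4 with RIPK2, 83.3 with RIPK3 and 98.4 with RIPK4. Vector was lowest and Wnt3a 1.41-fold higher (1.33 to 1.48). MAD2L1 had 67 RPKM in Vector, 36 with Wnt3a, 59 with RIPK1, 40.1 with RIPK2, 44.9 with RIPK3 and 48.2 with RIPK4. It ran the other way, with Vector highest and Wnt3a 1.86-fold lower (1.72 to 2.02). The ratio of CDC20 to MAD2L1 was 1.08 in Vector, 1.35 with RIPK1, 2.83 with Wnt3a and 1.85 to 2.25 in the other 3 libraries. TTK, the kinase that recruits the checkpoint proteins, had 29.8 RPKM in Vector, 18.1 with Wnt3a, 31.8 with RIPK1, 19.5 with RIPK2, 21.1 with RIPK3 and 20.7 with RIPK4. Vector and RIPK1 were again the high pair. The kinase BUB1 and BUB1B were both highest with RIPK1 (71.6 and 43.6 RPKM, against 59.7 and 36.7 in Vector), and lowest with RIPK2 (44.8) and RIPK3 (28.6).

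NUF2 and CENPE, both of the kinetochore, had the widest spread over the 6 libraries after CCNE2, 2.29-fold and 2.24-fold from lowest to highest. NUF2, a subunit of the NDC80 complex that grips microtubules, had 20.7 RPKM in Vector, 9.05 with Wnt3a, 20 with RIPK1, 11 with RIPK2, 12.2 with RIPK3 and 12.7 with RIPK4. It was 2.29-fold lower (2.03 to 2.58) with Wnt3a, 1.89-fold lower (1.69 to 2.11) with RIPK2, 1.7-fold lower (1.53 to 1.89) with RIPK3 and 1.63-fold lower (1.46 to 1.81) with RIPK4, and with RIPK1 1.04-fold lower (0.943 to 1.14), within counting error. KIF11, the motor that pushes spindle poles apart, had 38.7 RPKM in Vector, 25.3 with Wnt3a, 42.9 with RIPK1, 24 with RIPK2, 26.1 with RIPK3 and 28.7 with RIPK4. Vector and RIPK1 lay above the 4 others. CENPE, a kinetochore motor, had 16.5 RPKM in Vector, 9.23 with Wnt3a, 20.7 with RIPK1, 10.9 with RIPK2, 11.9 with RIPK3 and 12.1 with RIPK4. RIPK1 was highest and Wnt3a lowest. CENPF, another large kinetochore protein, had 51.8 RPKM with RIPK1, 39.9 in Vector and 32.7 to 37.9 elsewhere. KIF20A, a motor of the dividing midzone, lay between 33.2 (RIPK2) and 45.8 RPKM (RIPK1).

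TOP2A untangles chromosomes, and MKI67 encodes Ki-67, the common proliferation marker that coats them. TOP2A had 94.7 RPKM in Vector, 70.4 with Wnt3a, 116.9 with RIPK1, 66.2 with RIPK2, 70.5 with RIPK3 and 78.9 with RIPK4. RIPK1 was 1.23-fold higher (1.2 to 1.27) and RIPK2 1.43-fold lower (1.39 to 1.47). MKI67 had 24.4 RPKM in Vector, 29.3 with Wnt3a, 33.2 with RIPK1, 25.5 with RIPK2, 25.5 with RIPK3 and 29.8 with RIPK4. All 5 libraries were above Vector, most of all RIPK1, 1.36-fold higher (1.31 to 1.4). Vector was the lowest library for 3 mitosis genes, MKI67, CDC20 and PLK1, against 21.7% of all genes. It was the highest for 4, CCNA2, CDK1, MAD2L1 and NUF2, against 19.3% of all genes. The mitosis genes thus did not all order the libraries as MKI67 did.

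Ranking the 6 libraries for each gene needs no reference library. RIPK1 was the highest library for 13 of 20 mitosis genes and 7 of 20 replication genes, against 20.9% of all genes. Wnt3a was the lowest for 8 mitosis and 3 replication genes (22.3% of all genes), and RIPK2 for 6 and 7 (22.1% of all genes). RIPK4 was lowest for none of the 40, and for 5.8% of all genes.

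The members' differences followed the GC content of their transcripts, a property that is no part of how they were listed. Across the 40 members, Spearman's rho between GC content and the difference from Vector was 0.864 with Wnt3a, 0.854 with RIPK2, 0.763 with RIPK3 and 0.836 with RIPK4, but -0.082 with RIPK1. Across all 11779 genes with a GC value it was 0.701, 0.669, 0.546, 0.672 and -0.090 in the same order. These are descriptions across genes, which are not independent replicates, and each set of points shares the same pair of libraries. Mitosis transcripts had a median GC content of 42.8%, replication transcripts 49.1% and all genes 48.8%. The 20 members at or below 45.1% GC, of which 8 are replication genes, had median differences of -0.48 (Wnt3a), -0.46 (RIPK2), -0.39 (RIPK3) and -0.32 (RIPK4). The other 20 had 0.25, -0.03, -0.09 and 0.09. In RIPK2 and RIPK3 all 20 low-GC members stood below Vector. The share of all genes of such GC content below Vector was not counted, so whether this is particular to the members is not known. The members that ran against each other above differ in this property: CDT1 has 64.9% GC and GMNN 43.6%, MCM2 58.1% and MCM6 43.1%, CDC20 57.0% and MAD2L1 39.4%, and NUF2 has 38.8%. Whether the trend arose in the cells or in making the libraries was not tested.

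**Figure D3:**
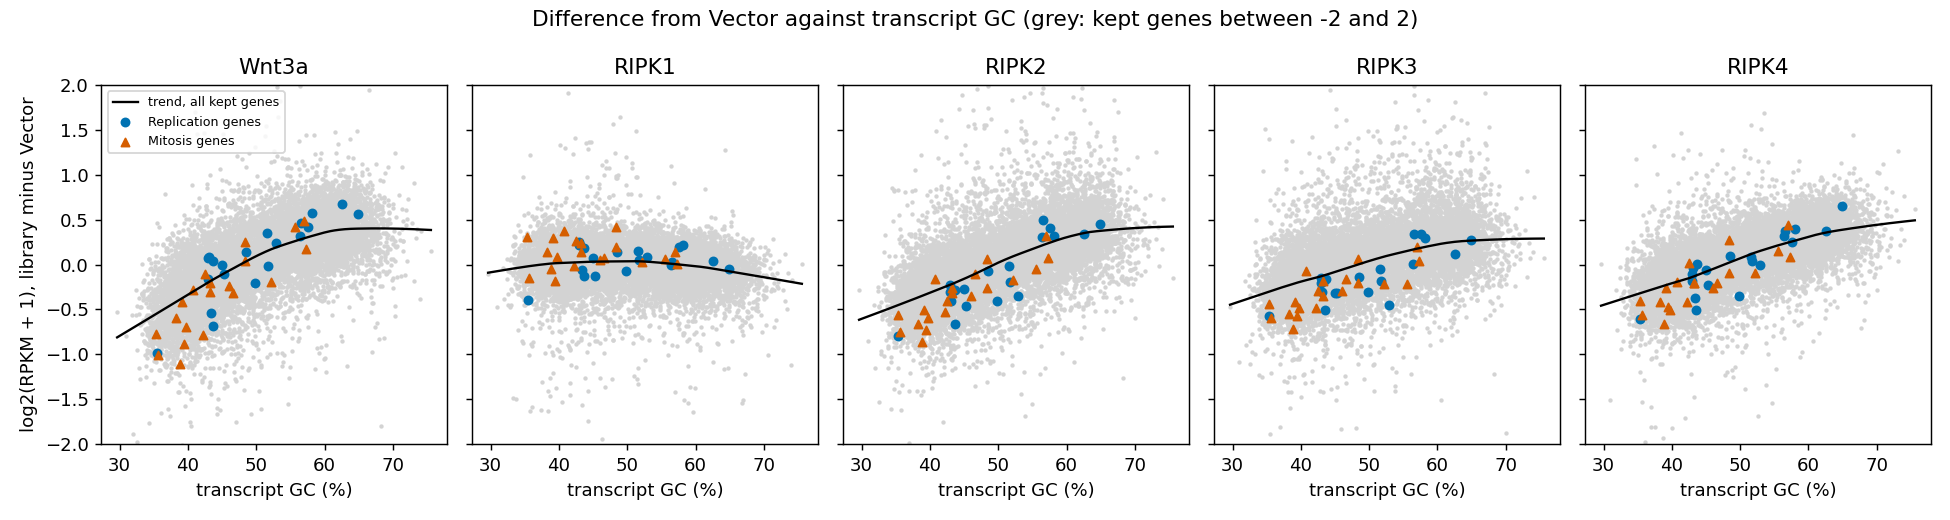
Difference of log2(RPKM + 1) from Vector against transcript GC content (%), 1 panel per library. Grey points are the genes analysed, the black line is their smoothed trend, circles are replication and triangles mitosis genes. Members lie higher at higher GC in every panel but RIPK1 (rho 0.763 to 0.864 against -0.082).

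With that trend subtracted (a smoothed curve through all genes), the mitosis medians with Wnt3a, RIPK2, RIPK3 and RIPK4 moved toward 0 and stayed below the replication medians. The distance between the 2 medians narrowed with Wnt3a, RIPK3 and RIPK4 and not with RIPK2. The mitosis medians became -0.15 with Wnt3a, 0.09 with RIPK1, -0.20 with RIPK2, -0.22 with RIPK3 and -0.14 with RIPK4, and the replication medians 0.10, 0.05, -0.08, -0.14 and 0.01. Below 0 were 14, 5, 17, 17 and 17 of the 20 mitosis genes and 6, 6, 15, 16 and 10 of the 20 replication genes, against 49.5%, 49.2%, 49.2%, 49.5% and 49.7% of all genes. With RIPK2 and RIPK3 both groups were mostly below 0. Lower with Wnt3a by at least 0.32 were 6 mitosis and 3 replication genes, against 13.5% of all genes, and 0 of either were higher, against 12.2%. For RIPK2 the lower counts were 2 and 4 (11.4% of all genes), for RIPK3 5 and 3 (10.4%) and for RIPK4 1 and 2 (8.86%), and no member was higher in these libraries (12.8%, 12.4% and 8.36% of all genes). For RIPK1, 3 mitosis genes were higher and 1 replication gene lower (4.47% and 6.68% of all genes). For RIPK2 and RIPK4 the mitosis genes were thus mostly below 0 by small steps, and no larger share of them passed the mark than among all genes.

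**Figure D4:**
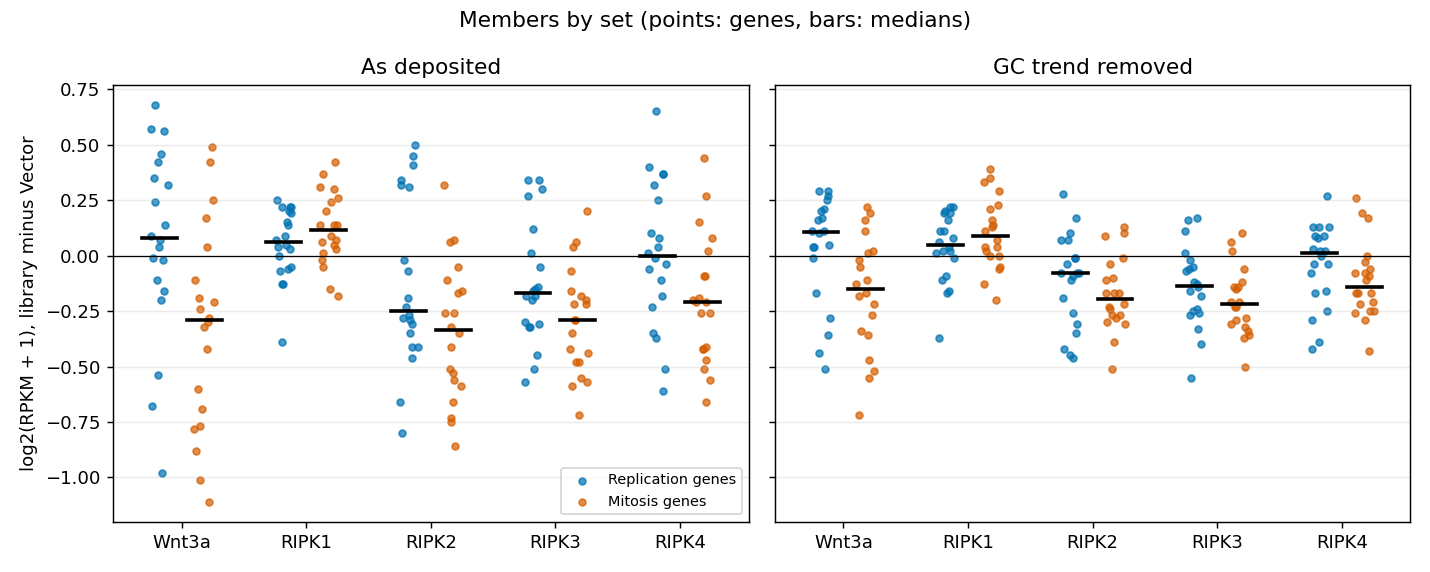
Difference of log2(RPKM + 1) from Vector for the replication and mitosis genes in each library, 1 point per gene, as deposited and with the GC trend removed, with bars at the medians. Removing the trend narrows the spread and moves the mitosis medians from -0.29 to -0.15 with Wnt3a and from -0.34 to -0.20 with RIPK2.

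Among the members farthest below Vector after the trend was removed were NUF2 (-0.72 with Wnt3a, -0.51 with RIPK2, -0.50 with RIPK3, -0.43 with RIPK4), CCNA2 (-0.55 with Wnt3a), MAD2L1 (-0.52 with Wnt3a) and GMNN. GMNN kept -0.51, -0.45, -0.40 and -0.39 in the 4 libraries other than RIPK1. CCNE1, with 52.9% GC, became lower than before with RIPK2 (-0.46) and RIPK3 (-0.55). TYMS stood at -0.42 with RIPK2 and -0.42 with RIPK4. The MCM2 to MCM7 genes kept positive values with Wnt3a in 6 of 6, from 0.11 to 0.29, none past the mark of 0.32. The 2 members past 2-fold before, NUF2 and CDK1, were no longer so, CDK1 at -0.47. Other members described by role came within the mark. With Wnt3a, E2F1 went from 0.68 to 0.29, CDC20 from 0.49 to 0.19 and AURKB from 0.42 to 0.16. CDT1 went from 0.65 to 0.27 with RIPK4, and TOP2A from -0.51 to -0.17 with RIPK2.

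Members of like GC content also differed from each other. Among the 10 members with 42% to 44% GC, the difference with Wnt3a ran from -0.78 for CCNA2, -0.68 for GMNN and -0.54 for RRM2 to 0.07 for RRM1 and 0.09 for MCM6. With RIPK2 all 10 were below Vector, from -0.66 (GMNN) to -0.23 (RRM1), and the share of all genes of that GC content was not counted. With RIPK1 they lay between -0.13 (GMNN) and 0.26 (BUB1).

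RIPK1 was the exception to the GC trend, and there the members of both groups moved with transcript length. Length here is the one solved from the RPKM values where that was possible. Spearman's rho between it and the difference from Vector was 0.603 over the 40 members, 0.541 over replication and 0.688 over mitosis genes, against 0.216 over all 11881 genes. With annotated lengths, tried after seeing the data, it was 0.552 over the members. In the other 4 comparisons the rho with solved length was 0.022 to 0.196 over the members and -0.069 to 0.047 over all genes. Over the replication genes alone it was 0.195 with Wnt3a, 0.359 with RIPK2, 0.424 with RIPK3 and 0.304 with RIPK4. Over the mitosis genes it was -0.152, -0.138, -0.053 and -0.025. With annotated lengths the replication genes had 0.223, 0.385, 0.433 and 0.415, against 0.481 with RIPK1. A relation with length among replication genes was thus not particular to RIPK1. The highest members with RIPK1 were the long transcripts MKI67 (0.42), CENPF (0.37), CENPE (0.31) and TOP2A (0.30), while POLE, at 7840 bases, stood at -0.00. The lowest were CCNE2 (-0.39, 2747 bases), MAD2L1 (-0.18, 1436 bases solved and 5468 annotated) and CDK1 (-0.15, 4393 bases solved and 1913 annotated), which are not all short. In all, 16 of 20 mitosis genes were above Vector with RIPK1, against 52.2% of all genes. Length moved with these values, and its part in them was not tested.

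**Figure D5:**
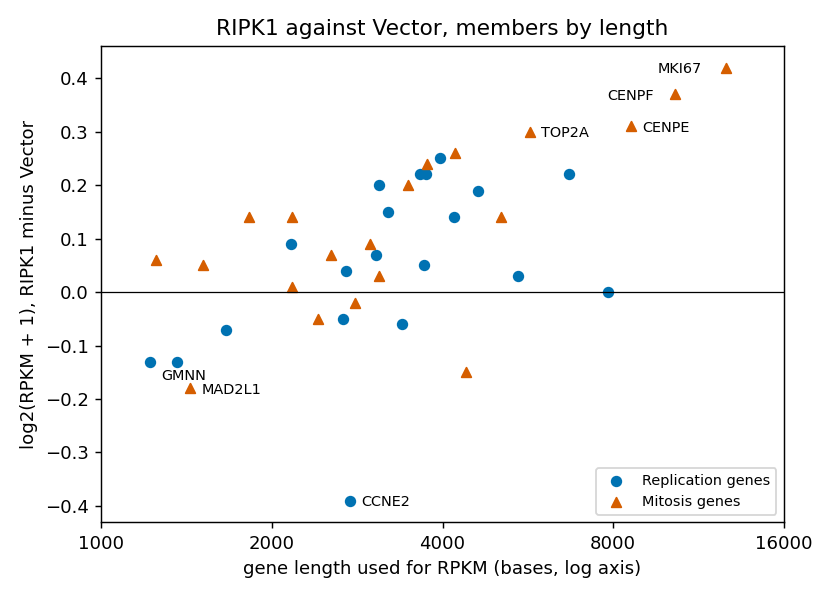
Difference of log2(RPKM + 1) between RIPK1 and Vector against transcript length (log axis) for the 40 members, circles for replication and triangles for mitosis genes. Longer transcripts lie higher (rho 0.603), with MKI67 (0.42) at the top right and CCNE2 (-0.39) at the bottom.

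Mitosis genes with and without a CHR in their window had like medians. The 12 mitosis genes with a CHR had trend-removed medians of -0.12 with Wnt3a, 0.14 with RIPK1, -0.17 with RIPK2, -0.22 with RIPK3 and -0.12 with RIPK4, and the 5 without one had -0.02, 0.11, -0.22, -0.21 and -0.09. The 4 mitosis genes with an E2F core (CCNB1, CDK1, MAD2L1 and NUF2) had -0.49, -0.10, -0.35, -0.32 and -0.25, against -0.05, 0.16, -0.17, -0.21 and -0.08 for the 13 without. The 13 replication genes with an E2F core had 0.11, 0.08, -0.08, -0.13 and 0.02, and the 4 without had -0.15, -0.01, -0.27, -0.23 and -0.21. The groups are small and were set apart by letters alone, so these medians are a description.

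Most further genes of the cell cycle also stood below Vector with Wnt3a, RIPK2, RIPK3 and RIPK4. Of 184 such genes in 8 lists, 182 had a mean of at least 1 RPKM, and 116, 134, 136 and 113 of them were below Vector in these libraries, where 46.7%, 50.9%, 47.8% and 44.4% of all genes were. With RIPK1 it was 81 of 182, against 47.8% of all genes. Their medians were -0.18 (Wnt3a), 0.02 (RIPK1), -0.22 (RIPK2), -0.16 (RIPK3) and -0.14 (RIPK4), or -0.09, 0.01, -0.10, -0.14 and -0.07 with the GC trend removed. As deposited, 29 were higher by at least 0.32 and 71 lower with Wnt3a, 4 and 7 with RIPK1, 17 and 70 with RIPK2, 12 and 50 with RIPK3, and 22 and 47 with RIPK4. Of all genes, 24.9%, 21.2%, 17.8% and 21.3% were higher with Wnt3a, RIPK2, RIPK3 and RIPK4, and 21.5%, 22.0%, 14.5% and 13.6% lower. In these libraries the lower counts were above those shares and the higher counts below them. With RIPK1, 5.17% of all genes were higher and 6.76% lower. With the GC trend removed the counts were 6 and 31, 6 and 6, 4 and 25, 4 and 33, and 3 and 21 in the order Wnt3a, RIPK1, RIPK2, RIPK3 and RIPK4. Of all genes, 12.2%, 4.47%, 12.8%, 12.4% and 8.36% were then higher, and 13.5%, 6.68%, 11.4%, 10.4% and 8.86% lower. So in the 4 libraries other than RIPK1 fewer of the further genes passed the mark in either direction. Past 2-fold were 4 genes lower with Wnt3a and 1 with RIPK1, where 1.43% and 0.547% of all genes were. With the GC trend removed there were 0 with Wnt3a and 1 with RIPK1. DBF4, which activates the kinase that fires origins, had 10.9 RPKM in Vector, 4.44 with Wnt3a, 8.45 with RIPK1, 5.49 with RIPK2, 6.44 with RIPK3 and 7.08 with RIPK4. HMMR, a spindle protein, went from 36.0 RPKM in Vector to 16.1 with Wnt3a, and CENPQ and CENPK, from the inner kinetochore beside NUF2, from 19.7 to 7.69 and from 25.8 to 11.1. The trend-removed differences with Wnt3a were -0.80 for DBF4, -0.62 for HMMR, -0.64 for CENPQ and -0.49 for CENPK. SAMHD1, which breaks down deoxynucleotides, was the gene past 2-fold with RIPK1: it had 47.5 RPKM in Vector and 19.2 with RIPK1, 2.48-fold lower (2.3 to 2.67).

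In most libraries the medians of these lists lay closer to 0 once the GC trend was removed, except those of the fork polymerases. Values are in the order Wnt3a, RIPK1, RIPK2, RIPK3 and RIPK4. Origin recognition and firing factors had medians of -0.12, 0.02, -0.29, -0.30 and -0.21 as deposited and -0.05, -0.00, -0.06, -0.12 and -0.09 with the trend removed. Fork polymerases and their accessory factors had medians of 0.07, -0.02, -0.19, -0.14 and 0.04 as deposited and -0.01, -0.03, -0.20, -0.18 and -0.06 with the trend removed. Further genes of nucleotide supply had medians of -0.24, 0.04, -0.18, -0.11 and -0.12 as deposited and -0.16, 0.01, -0.13, -0.09 and -0.07 with the trend removed. Regulators of the G1/S step had medians of -0.12, -0.02, -0.09, -0.15 and -0.01 as deposited and -0.08, -0.05, -0.06, -0.03 and 0.00 with the trend removed. Genes of mitotic entry and its transcription had medians of -0.24, 0.06, -0.22, -0.12 and -0.14 as deposited and -0.21, 0.04, -0.09, -0.13 and -0.09 with the trend removed. Kinetochore and checkpoint genes had medians of -0.23, 0.03, -0.28, -0.24 and -0.19 as deposited and -0.11, 0.02, -0.12, -0.17 and -0.13 with the trend removed. Spindle motor and cytokinesis genes had medians of -0.24, 0.14, -0.24, -0.18 and -0.14 as deposited and -0.10, 0.13, -0.14, -0.19 and -0.12 with the trend removed. Genes of the anaphase promoting complex, cohesin and condensin had medians of -0.30, 0.00, -0.20, -0.09 and -0.19 as deposited and -0.08, 0.01, -0.02, -0.03 and -0.07 with the trend removed.

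The inhibitors CDKN1A and CDKN1B and the cyclin that answers growth signals did not point one way. CCND1 (cyclin D1) had 159.9 RPKM in Vector, 245.6 with Wnt3a, 121.8 with RIPK1, 245.9 with RIPK2, 243.5 with RIPK3 and 211.2 with RIPK4. It was higher in the 4 libraries in which mitosis genes were lower, and lowest with RIPK1. CDKN1A (p21), a kinase inhibitor, had 13.9 RPKM in Vector, 17.3 with Wnt3a, 10.9 with RIPK1, 18.8 with RIPK2, 22.5 with RIPK3 and 19.9 with RIPK4. RIPK3 was its highest library and RIPK1 its lowest. CDKN1B (p27), another inhibitor, had 25.3 RPKM in Vector, 13.1 with Wnt3a, 24.7 with RIPK1, 14.7 with RIPK2, 17.6 with RIPK3 and 17.2 with RIPK4. With 47.7% GC, its difference with Wnt3a was -0.90 before and -0.90 after the trend was removed. Of the factors that act on the CHR type of promoter, FOXM1 stayed between 55.6 and 60.5 RPKM in the 6 libraries. MYBL2 (B-MYB) had 116.8 RPKM in Vector, 173.7 with Wnt3a, 133.9 with RIPK1, 131.1 with RIPK2, 122.5 with RIPK3 and 145.7 with RIPK4, highest with Wnt3a. Trend-removed differences follow in the order Wnt3a, RIPK1, RIPK2, RIPK3 and RIPK4. CCND1 stood at 0.51, -0.43, 0.59, 0.56 and 0.32, and CDKN1A at -0.02, -0.32, 0.15, 0.46 and 0.22. FOXM1 stood at -0.15, 0.04, -0.10, -0.15 and -0.09, and MYBL2 at 0.20, 0.22, -0.15, -0.16 and -0.00.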

How the data were processed

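RNA sequencing values were taken from 1 deposited table with 1 column for each of the 6 libraries and no pooling, in RPKM per the file headers. The authors' processing notes name GSNAP, DESeq and the build hg19, per the submitters' processing notes. Of their versions, the gene annotation and the use of strand, none is given in the sources used here. Columns were matched to samples by title and groups taken from the transfection label. No scaling between libraries was added. Each group has 1 library, so no p-value was computed. Differences from Vector are of log2(RPKM + 1), with a pseudocount of 1, and are counted from 0.32 (log2) and from 2-fold. Counts over all genes use the 11881 of 20494 genes with a mean of at least 1 RPKM, and leave out the kinase transfected in the library compared.

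Reads were worked back from RPKM. Since an RPKM is a whole number of reads over a transcript length and a depth factor, the 6 values of a gene fix the length within the 5 significant digits printed in the table. Lengths from 15 to 30000 bases were tried, which solved 97.4% of genes with reads in 2 or more libraries, and 31 of the 40 members. Of the solved genes with a mean of at least 1 RPKM, 61.1% lay within 1.25-fold of the annotated length. For MCM3, MCM4, MCM7, PCNA, TYMS, POLE, CCNB1, MKI67 and CENPF, reads were approximated from the length in GENCODE 29. Library totals were 17.25 M reads (Vector), 18.52 (Wnt3a), 19.51 (RIPK1), 19.29 (RIPK2), 19.09 (RIPK3) and 18.32 (RIPK4). Intervals are exact binomial at 95%. They cover counting error only, since the reads carry no molecular identifiers and may repeat a molecule. No count model was fitted, since 1 library per group leaves no spread to fit.

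GC content came from GENCODE 29 transcripts by gene identifier. Where the annotated and solved lengths differ, as for MAD2L1 and CDK1, it may be that of another transcript than the one counted. The GC trend is a lowess curve (fraction 0.3) over all genes analysed, subtracted from each difference. Scripts ran in Python 3.11.15 with pandas 2.3.3, numpy 2.4.6, scipy 1.17.1 and statsmodels 0.14.6, and the read recovery and trend removal were tested on simulated data. All 40 members could be named. Of the further lists, the genes past 2-fold and the fixed genes CCND1, CDKN1A, FOXM1 and MYBL2 were named; CDKN1B was added after its values were seen. Members and lists were chosen with earlier results of these data known. Promoter windows are from RefSeq (GRCh38.p14), a later build than that of the reads, and served only for sequence. Alternatives were another pseudocount, no filter on low values, rescaling by median ratios, removal of the GC trend, fold marks of 1.5 and 2 and another reference library.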

Additional observations from a re-analysis of the deposited data

How the results depend on the processing

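A pseudocount of 0.1 left all 20 medians and counts over the members as reported, within 0.1 for medians and 1.5 times for counts. Dropping the filter on low values could change none of them, since all 40 members pass it. Rescaling by median ratios did so for 18, and changed the members higher by at least 0.32 from 2 to 0 with RIPK3 and from 6 to 3 with RIPK4. Removing the GC trend moved 10 values. The mitosis median became -0.15 with Wnt3a and -0.20 with RIPK2, and the replication median -0.08 with RIPK2. Members higher became 0 with Wnt3a, RIPK2, RIPK3 and RIPK4, and members lower 6 with RIPK2, 8 with RIPK3 and 3 with RIPK4. At 1.5-fold, members higher and lower were 1 and 9 with Wnt3a, 0 and 0 with RIPK1, 0 and 7 with RIPK2, 0 and 2 with RIPK3 and 1 and 2 with RIPK4. The share of all genes past 1.5-fold was not counted, so these counts have no background beside them. At 2-fold they were 0 and 2 with Wnt3a and 0 and 0 in the other 4, by construction of a stricter mark.

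A reference other than Vector was chosen after seeing the data. Against RIPK1 in its place, the replication median reversed to -0.04 with Wnt3a and became -0.10 with RIPK4. The mitosis medians became -0.47 with Wnt3a, -0.52 with RIPK2, -0.42 with RIPK3 and -0.33 with RIPK4. Members lower became 17 with Wnt3a, 25 with RIPK2 and 22 with RIPK3, and members higher 2 with RIPK2 and 1 with RIPK3. The share of all genes past the mark against RIPK1 was not counted, so these counts have no background beside them. The cause was not tested.

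No paired analysis was possible because each group has 1 library. For the same reason no library was left out. CCNE2, at 1.65 to 4.24 RPKM, is the member that depth limits most.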
